A study of Homo sapiens with 30 samples.

Results

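Integrins and cadherins are the receptors by which cells hold on to matrix and to each other. An integrin is a pair of an alpha and a beta subunit that binds collagen, laminin, fibronectin or a counter-receptor outside the cell and couples through talin, kindlin and other adaptors to actin inside it. A classical cadherin binds cadherins on the neighbouring cell and couples to actin through catenins, and the balance between E-cadherin (CDH1) and N-cadherin (CDH2) is widely used to describe epithelial and mesenchymal states. The genes described here are the 48 in the PRO-Seq table whose symbol is ITGA or ITGB followed by digits or by D, E, L, M, V or X, or CDH followed by digits. They comprise 25 integrin and 23 cadherin genes of 20367 gene symbols. The rule used no measured value, and each of the 48 genes was listed once.

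The cells were G401, a line from a malignant rhabdoid tumor that lacks SNF5, the SWI/SNF chromatin remodeler subunit encoded by SMARCB1. All groups carried a lentiviral TET-inducible construct in a G418-selected population, and all received 1 μg/ml doxycycline for 24 h. The constructs were EGFP (the control), OmoMYC (a dominant-negative MYC mutant, labelled OMOMYC) and SNF5. PRO-Seq, a nuclear run-on assay that maps active RNA polymerases, and ATAC-Seq, which marks open chromatin, had 3 samples of each construct, and MYC ChIP-Seq had 2. The paper describes the PRO-Seq samples as independent experiments and its tests as allowing for a batch effect. The labels do not say whether they were separate cultures, so p-values measure the spread between these samples. In the main PRO-Seq tests this is the spread left after differences between replicate numbers are removed.

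Each PRO-Seq sample had between 28444943 and 46957634 reads on gene bodies and between 518900 and 3386528 in promoter-proximal windows. Promoter-proximal reads numbered 1.49 to 2.01 per 100 gene body reads in replicate 1, 9.44 to 11.5 in replicate 2 and 4.4 to 5.41 in replicate 3, so that this ratio went with the replicate number and not with the construct. SMARCB1 had 1 to 6 gene body reads in each EGFP and OmoMYC sample and 2870, 4467 and 3440 in the SNF5 samples. Among leukocyte markers, PTPRC had 0 or 1 reads and CD3E 0 to 9 in every sample, whereas CSF1R had 429 to 1292. Among endothelial markers, TEK had 157 to 283 reads in each sample, TIE1 10 to 68 and KDR 0 to 7, and PECAM1 was listed at 0. Among epithelial markers, KRT8 had 9594 to 17533 reads in each sample, KRT18 2790 to 4466, EPCAM 14 to 58 and KRT19 0 to 6, CLDN4 was listed at 0, and the mesenchymal marker VIM had 6423 to 16148.

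The sequences before a listed start of 4 members, chosen after their values were seen, are shown as examples. ITGA11, ITGB8 and CDH2 were transcribed at several times the control level with SNF5, and ITGAV was the most densely transcribed member. The members that rose most with SNF5, ITGAX, ITGB3 and ITGAD, are not among them. Each stretch is the 250 bases before a RefSeq start in GRCh38.p14, printed 5′ to 3′ on the strand of the gene. The start taken was the listed one nearest the 5′ end of the gene. For ITGB8 that start lies inside the gene, so its stretch is not upstream of the gene. Capitals mark CACCTG or its complement CAGGTG, the E-box form bound by SNAI and ZEB repressors. CACGTG (the E-box of MYC) and TGANTCA (the AP-1 motif) were searched as well, on both strands, and neither is in these 4 stretches.
ITGA11, chr15:68432164-68432413, minus strand: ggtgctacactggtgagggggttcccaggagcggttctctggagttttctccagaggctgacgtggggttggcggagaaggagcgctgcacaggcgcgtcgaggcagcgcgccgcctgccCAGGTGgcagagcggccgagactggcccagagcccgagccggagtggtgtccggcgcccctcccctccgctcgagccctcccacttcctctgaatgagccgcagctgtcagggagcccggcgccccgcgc
ITGB8, chr7:20330650-20330899, plus strand: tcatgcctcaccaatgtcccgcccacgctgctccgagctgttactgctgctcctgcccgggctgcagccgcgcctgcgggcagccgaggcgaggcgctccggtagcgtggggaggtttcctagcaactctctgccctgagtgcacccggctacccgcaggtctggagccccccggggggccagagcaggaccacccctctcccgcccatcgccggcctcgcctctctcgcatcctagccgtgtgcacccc
CDH2, chr18:28177131-28177380, minus strand: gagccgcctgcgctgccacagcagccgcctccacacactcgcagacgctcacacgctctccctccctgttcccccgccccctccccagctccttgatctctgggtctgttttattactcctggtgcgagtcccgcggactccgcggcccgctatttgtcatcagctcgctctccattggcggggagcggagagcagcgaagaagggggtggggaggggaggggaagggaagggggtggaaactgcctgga
ITGAV, chr2:186589806-186590055, plus strand: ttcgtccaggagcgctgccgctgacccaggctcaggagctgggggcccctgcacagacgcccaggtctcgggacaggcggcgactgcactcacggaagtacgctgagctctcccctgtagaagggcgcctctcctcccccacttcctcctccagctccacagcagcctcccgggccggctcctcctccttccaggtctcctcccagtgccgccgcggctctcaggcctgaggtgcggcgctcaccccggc

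All 4 stretches are rich in G and C, from 66% in CDH2 to 71.2% in ITGA11 and ITGB8, with 17 to 23 CpG dinucleotides each. The single CAGGTG of ITGA11 begins 130 bases before the start. RefSeq promoters of 300 bases, reaching 50 bases past the start, were matched for 28 of the 48 members, with 44 promoters in all. CACGTG was in 1 of these 44, at ITGA6, or 2.27%, against 7.26% of all 35116 promoters. CACCTG was in 6 (13.6% against 20.6%) and TGANTCA in 4 (9.09% against 7.71%). The genes with TGANTCA were CDH12, CDH18, CDH2 and ITGA5. CDH2 thus has this motif in a promoter, though outside the stretch printed above. These shares are descriptions, and a match is not a bound site.

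To see which adhesion receptors these cells transcribe, gene body reads were expressed as RPKM, that is, divided by the length of the gene body and by the scaled depth. ITGAV, the alpha subunit of the RGD-binding receptors for vitronectin and fibronectin, stood first with EGFP at 10.6, 11.9 and 9.24 RPKM. ITGB1, the beta subunit shared by most matrix-binding integrins, followed at 8.22, 10.4 and 5.48. ITGA5, which pairs with ITGB1 as the fibronectin receptor, was at 3.3, 2.85 and 3.63. These levels placed ITGAV above 97.7% of all genes, ITGB1 above 96.7% and ITGA5 above 85.9%.

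The ITGAV and ITGB1 levels overlapped between samples, and ITGA5 lay below both without overlap. A gap separated ITGA5 from the next group, ITGA6 (the laminin-binding alpha 6 subunit, mean 0.939 ± 0.366, SD, n = 3), CDH24, ITGA3, ITGAE, CDH4 (R-cadherin) and ITGB5. Their means ran down to 0.585, neighbours in the order overlapped, and ITGB5 also overlapped with the next gene, ITGB6. CDH24 begins 1.0 kb past the end of ACIN1 on the same strand, and ITGAE 5.5 kb past that of C17orf85. Reads past the ends of ACIN1 and C17orf85 cannot be told apart from reads of CDH24 and ITGAE. The classical pair of the epithelial and mesenchymal switch was low, with CDH1 at 0.0921 ± 0.107 and CDH2 at 0.00107 ± 0.000632 (SD, n = 3). CDH11, a mesenchymal cadherin, was at 0.0015 ± 0.000429, and P-cadherin (CDH3) at 0.0348 ± 0.0151. ITGA10 was listed at 0 reads in every sample and both regions, as were JUP (plakoglobin), FLNA (filamin A), PECAM1 and CLDN4, so its 0 is not read as a lack of transcription.

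**Figure D1:**
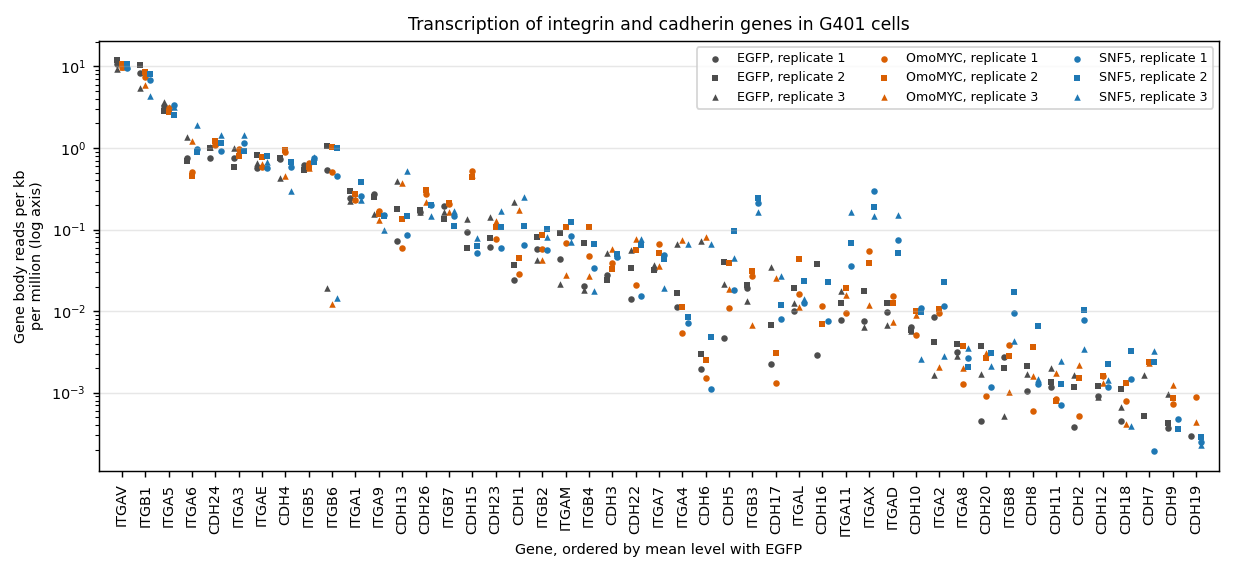
Gene body RPKM (log axis) in each of the 9 PRO-Seq samples for the 47 members with any read, ordered by mean level with EGFP; colors are constructs and marker shapes are replicate numbers, and samples at 0 are not drawn. ITGAV, ITGB1 and ITGA5 lie above all other members, and ITGB6 and CDH6 show replicate 3 (triangles) far from replicates 1 and 2 in every construct.

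Does return of SNF5 change transcription of adhesion genes? Integrin genes rose more often than they fell. Of the 48 members, 41 had a mean of at least 10 gene body reads and were tested, and 7 were not (ITGA10, CDH7, CDH9, CDH11, CDH16, CDH19 and CDH20). With SNF5, 13 rose, 3 fell and 25 did not pass an adjusted p of 0.05, where 17.5% of all genes tested rose and 16.5% fell. The median log2 fold change of the tested members was 0.32, against −0.03 over all genes tested. By family, 10 of 24 integrin genes rose and 2 fell, and 3 of 17 cadherin genes rose and 1 fell. CDH2, ITGAX and ITGB8 had a mean under 10 reads with EGFP and passed the filter through the other constructs. For ITGB8 the mean was also under 10 with OmoMYC (11, 7 and 4 raw reads). ITGB8 therefore passed the filter only through the SNF5 samples, where it was high. With no filter, the same 13 rose and the same 3 fell among 47 tested. Counts of 15060 genes were fitted in edgeR (quasi-likelihood), replicate number was a blocking term, and the Benjamini-Hochberg adjustment ran over all of them. In bulk samples, a change in the share of cells that transcribe a gene and a change per cell cannot be told apart. Without the block, 3 members rose (ITGAX, ITGAD and ITGB3) and 0 fell, with 9 at an unadjusted p under 0.05, and over all genes 218 rose and 7 fell. In settings chosen after the data were seen, in which 1 replicate number was left out of every construct, 7 members passed without replicate 1, 9 without replicate 2 and 24 without replicate 3.

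**Figure D2:**
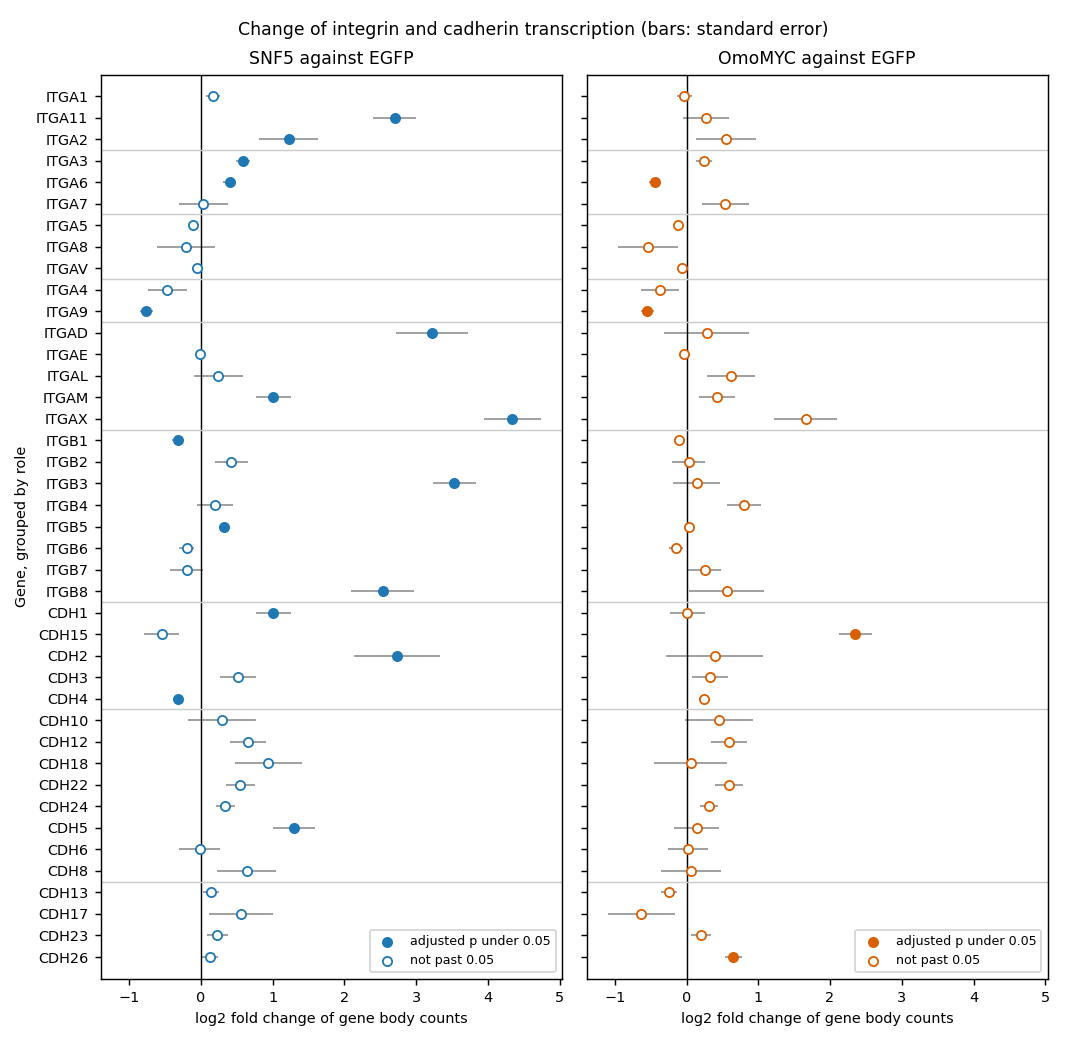
Log2 fold change of gene body counts against EGFP for the 41 members tested, with SNF5 (left) and OmoMYC (right), grouped by role with thin lines between groups; bars are standard errors and filled points passed an adjusted p of 0.05. With SNF5, ITGAX (4.34), ITGB3 (3.53) and ITGAD (3.22) lie farthest to the right, and with OmoMYC, CDH15 (2.35) does.

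Beta subunits decide which alpha subunits can reach the surface as a receptor. ITGB3, the beta 3 subunit that pairs with ITGAV, had normalised gene body counts of 42.2, 45.4 and 29.1 with EGFP, 58.5, 67.4 and 14.5 with OmoMYC, and 452, 530 and 357 with SNF5. The SNF5 samples lay above all others without overlap. The log2 fold change with SNF5 was 3.53 (standard error 0.30, adjusted p = 9.3e-05, edgeR), an 11.6-fold rise seen in 3 of 3 pairs of replicates. ITGB3 lies on chromosome 17 of hg19 from 45331208 to 45390077.

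ITGB8, a beta subunit that pairs with ITGAV and activates latent TGF-beta, had few reads, with normalised counts of 8.65, 6.3 and 1.62 with EGFP and 29.7, 54.6 and 13.5 with SNF5. Each SNF5 sample was above every EGFP sample, and the OmoMYC samples (11.9, 8.9 and 3.22) overlapped with EGFP. The log2 fold change with SNF5 was 2.53 (standard error 0.44, adjusted p = 0.0031, edgeR). ITGB5, which also pairs with ITGAV, rose by 0.32 on the log2 scale (standard error 0.07, adjusted p = 0.0078, edgeR), from 2829, 2501 and 2786 with EGFP to 3454, 3083 and 3605 with SNF5, with no overlap.

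ITGB1 moved the other way. Its normalised counts were 17560, 22226 and 11712 with EGFP and 14670, 17411 and 9189 with SNF5, so that groups overlapped but each SNF5 sample was below the EGFP sample of the same number. The log2 fold change was −0.32 (standard error 0.08, adjusted p = 0.017, edgeR). It did not pass without EGFP replicate 1 (adjusted p = 0.064, edgeR) or without EGFP replicate 2 (adjusted p = 0.10, edgeR). ITGB2, ITGB4, ITGB6 and ITGB7 did not pass the test, with log2 fold changes between −0.20 and 0.42.

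The leukocyte alpha subunits ITGAM, ITGAX and ITGAD pair with ITGB2 on myeloid cells, and their genes lie in this order on the plus strand of chromosome 16 (hg19), from 31271288 to 31344213, 31366509 to 31394318 and 31404633 to 31437826. ITGAX (CD11c) had normalised counts of 7.57, 17.6 and 6.47 with EGFP, 55.2, 39.4 and 12.1 with OmoMYC, and 297, 188 and 148 with SNF5. Its log2 fold change with SNF5 was 4.34 (standard error 0.40, adjusted p = 0.00014, edgeR), the largest of the tested members. The change with OmoMYC, 1.66 (standard error 0.44, adjusted p = 0.052, edgeR), did not pass here and passed with no filter on low counts. SNF5 samples lay above all others, and 1 of the 3 OmoMYC samples lay within the range of EGFP.

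ITGAD (CD11d) had 11.9, 15.1 and 8.09 with EGFP and 89.9, 62 and 180 with SNF5, with no overlap, and a log2 fold change of 3.22 (standard error 0.50, adjusted p = 0.0018, edgeR), which was 2.45 without SNF5 replicate 3. ITGAM (CD11b) had 117, 246 and 57.5 with EGFP and 222, 331 and 188 with SNF5. These overlapped between groups but rose in 3 of 3 pairs, by 1.01 on the log2 scale (standard error 0.25, adjusted p = 0.014, edgeR). Without EGFP replicate 1, ITGAM did not pass (adjusted p = 0.067, edgeR). ITGAD begins 10.3 kb past the end of ITGAX, and ITGAX 22.3 kb past the end of ITGAM, on the same strand, so reads past the end of one gene and reads from the next cannot be told apart here.

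The partner ITGB2 did not pass the test, with 89.7, 126 and 67.2 with EGFP and 87.1, 159 and 126 with SNF5 (log2 fold change 0.42, standard error 0.23, adjusted p = 0.19, edgeR). ITGAL, the alpha subunit of LFA-1, had a log2 fold change of 0.24 (adjusted p = 0.61, edgeR), and ITGAE, which pairs with ITGB7 and binds E-cadherin, of −0.02 (adjusted p = 0.85, edgeR). The summed leukocyte markers ran from 9.57 to 29.4 RPM with EGFP and from 15 to 31.6 with SNF5, nearly all of it CSF1R, the 1 marker of 5 with enough reads to test, which did not pass. Their part in these results was not tested.

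Among alpha subunits of collagen receptors, ITGA11 (alpha 11, typical of fibroblasts) rose most. Its normalised counts were 37.8, 60.5 and 85 with EGFP, 45.5, 94.1 and 77.2 with OmoMYC, and 174, 331 and 795 with SNF5, where each SNF5 sample was above all 6 others. The log2 fold change with SNF5 was 2.70 (standard error 0.30, adjusted p = 0.00036, edgeR), a 6.48-fold rise.

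ITGA2, the alpha subunit of the platelet collagen receptor, had 33.5, 16.4 and 6.47 with EGFP and 45.4, 88.2 and 10.9 with SNF5. Its rise of 1.22 on the log2 scale (standard error 0.41, adjusted p = 0.046, edgeR) was largest in replicate 2 and passed narrowly. DESeq2, TMM factors and a fit of 2 groups did not call it. The adjusted p was 0.23 without SNF5 replicate 2, 0.25 without EGFP replicate 2, 0.051 without EGFP replicate 1 and 0.055 without EGFP replicate 3 (edgeR). ITGA1, which lies upstream of ITGA2 on chromosome 5, had 1505, 1822 and 1382 with EGFP and 1605, 2372 and 1413 with SNF5, and did not pass (log2 fold change 0.17, adjusted p = 0.20, edgeR).

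Both epithelial laminin receptors rose a little. ITGA3 went from 934, 741 and 1257 with EGFP to 1433, 1152 and 1807 with SNF5, a log2 fold change of 0.59 (standard error 0.10, adjusted p = 0.0035, edgeR). ITGA6 went from 2201, 2045 and 3961 to 2814, 2585 and 5598, a log2 fold change of 0.40 (standard error 0.09, adjusted p = 0.0094, edgeR). In both genes the groups overlapped and each SNF5 sample was above the EGFP sample of the same number. ITGA7, the muscle laminin receptor, had a log2 fold change of 0.03 (adjusted p = 0.95, edgeR).

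The RGD receptor alpha subunits gave 0 calls. The log2 fold change with SNF5 was −0.05 for ITGAV (standard error 0.06, adjusted p = 0.60), −0.11 for ITGA5 (standard error 0.06, adjusted p = 0.22) and −0.21 for ITGA8 (standard error 0.40, adjusted p = 0.72), all from edgeR. ITGAV had 35584, 39881 and 31087 with EGFP and 32570, 36141 and 34166 with SNF5, and ITGA5 2840, 2452 and 3125 against 2886, 2206 and 2718. Without EGFP replicate 3, ITGAV passed the test at −0.13 (adjusted p = 0.04, edgeR). ITGA9, which binds tenascin-C and VCAM1 with ITGB1, fell from 3777, 3409 and 2149 to 2074, 2026 and 1365. Its log2 fold change was −0.76 (standard error 0.09, adjusted p = 0.00057, edgeR), with each SNF5 sample below every EGFP sample.

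**Figure D3:**
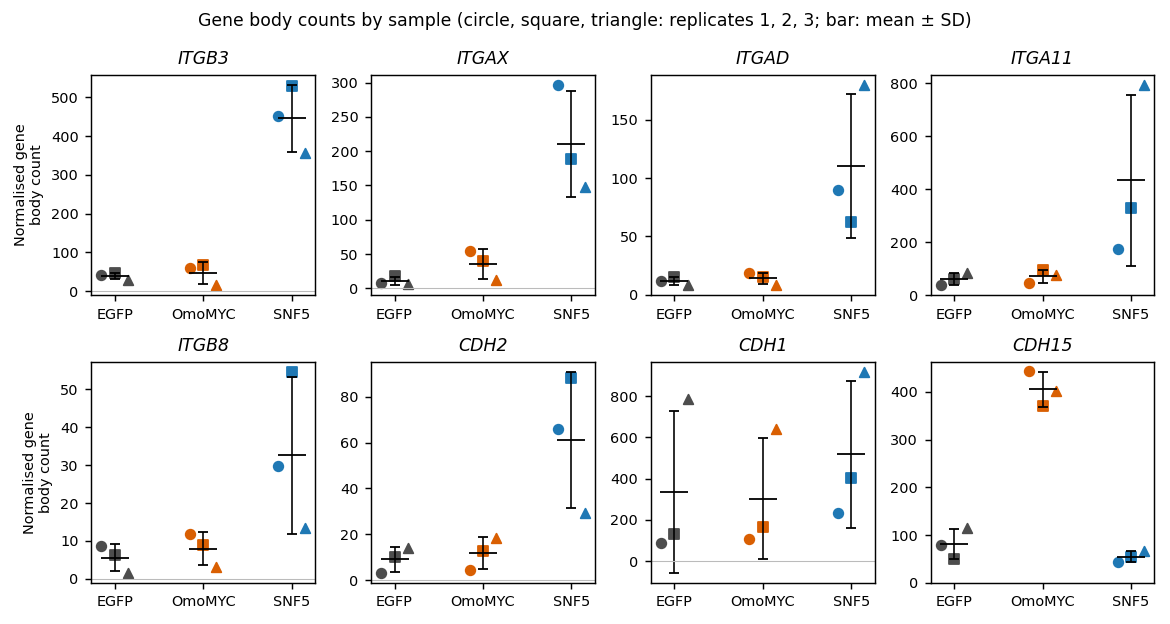
Normalised gene body counts of 8 members in each PRO-Seq sample by construct, with replicate numbers as marker shapes and the mean ± SD as black bars (n = 3). SNF5 samples lie above all others for ITGB3, ITGAX, ITGAD, ITGA11 and CDH2, CDH1 is split by replicate number, and CDH15 is high in the 3 OmoMYC samples (371 to 443).

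Among classical cadherins, CDH2 and CDH1 both rose with SNF5. N-cadherin, CDH2, had normalised counts of 3.24, 10.1 and 13.8 with EGFP, 4.33, 12.7 and 18.5 with OmoMYC, and 65.8, 88.2 and 29.4 with SNF5. The log2 fold change with SNF5 was 2.73 (standard error 0.60, adjusted p = 0.0087, edgeR), with SNF5 samples above all others. It did not pass without EGFP replicate 1 (adjusted p = 0.051, edgeR) or replicate 2 (adjusted p = 0.055, edgeR). This fold change was 2.14 (log2) without SNF5 replicate 1, 3.32 without EGFP replicate 3 and 3.61 without SNF5 replicate 3. The SNF5 samples had 71, 84 and 35 raw reads over a gene body of 225.5 kb.

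E-cadherin, CDH1, had 87.6, 132 and 788 with EGFP, 105, 164 and 640 with OmoMYC, and 234, 404 and 918 with SNF5. Replicate 3 was the highest of each construct, and the groups overlapped, but SNF5 was higher in 3 of 3 pairs. The log2 ratio was 1.41 in replicate 1, 1.61 in replicate 2 and 0.22 in replicate 3. The fitted log2 fold change was 1.01 (standard error 0.24, adjusted p = 0.012, edgeR). The call was lost without EGFP replicate 1 (adjusted p = 0.064), EGFP replicate 2 (0.07) or SNF5 replicate 2 (0.051), all from edgeR. Of the epithelial markers, KRT18 fell with SNF5 (log2 fold change −0.26, adjusted p = 0.0082, edgeR), and KRT8 (−0.11, adjusted p = 0.13) and EPCAM (−0.35, adjusted p = 0.46) did not pass. VIM did not pass either (0.11, adjusted p = 0.25, edgeR). CDH3, upstream of CDH1 on chromosome 16, had a log2 fold change of 0.52 (standard error 0.25, adjusted p = 0.13, edgeR), from 56.2, 49.2 and 105 with EGFP to 92.7, 101 and 97.6 with SNF5. Without SNF5 replicate 3, CDH3 passed (log2 fold change 0.81, adjusted p = 0.018, edgeR).

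CDH4, R-cadherin, fell from 18670, 19160 and 11166 to 15234, 17419 and 7752, a log2 fold change of −0.32 (standard error 0.07, adjusted p = 0.0091, edgeR), lower in 3 of 3 pairs with overlapping groups. Among type II cadherins, VE-cadherin (CDH5) rose, from 6.49, 55.5 and 29.9 to 25, 136 and 63.1, by 1.30 on the log2 scale (standard error 0.29, adjusted p = 0.0091, edgeR). The groups overlapped and SNF5 was higher in 3 of 3 pairs. The endothelial marker TIE1 also rose (log2 fold change 1.56, adjusted p = 0.032, edgeR), PECAM1 was listed at 0 and KDR had 0 to 7 reads a sample. Of the 4 endothelial markers 2 were tested and 1 passed, their sum was 4.9 to 7.5 RPM with EGFP and 6.69 to 9.51 with SNF5, and their part in the CDH5 result was not tested. The other 7 type II cadherins tested did not pass, with log2 fold changes from −0.02 in CDH6 to 0.94 in CDH18. CDH11 was not tested, with raw gene body reads of 7, 7 and 16 with EGFP and 5, 8 and 19 with SNF5.

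OmoMYC changed few adhesion genes. Of the 41 tested, 2 rose and 2 fell, where 4.1% of all genes tested rose and 4.42% fell. The shares among members (4.9% in each direction) were near those of all genes. Without the block 0 of the 41 passed in edgeR (4 at an unadjusted p under 0.05), and of all genes 1 did, while DESeq2 with the block called 6. The count was 0 without EGFP replicate 1, OmoMYC replicate 1 or OmoMYC replicate 2, 1 without EGFP replicate 2, 8 without EGFP replicate 3 and 7 without OmoMYC replicate 3. It was 17 without replicate 3 of every construct and 0 without replicate 1 or 2.

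M-cadherin, CDH15, a cadherin of muscle precursors, rose most with OmoMYC. Its raw gene body reads were 73, 40 and 141 with EGFP, 409, 292 and 499 with OmoMYC, and 48, 51 and 79 with SNF5. The OmoMYC samples lay above all others, at a log2 fold change of 2.35 (standard error 0.23, adjusted p = 0.0051, edgeR), or 5.09-fold. Its call was lost without EGFP replicate 1 (adjusted p = 0.076), OmoMYC replicate 1 (0.072) or OmoMYC replicate 2 (0.054), all from edgeR, while the log2 fold change stayed between 2.13 and 2.59. CDH15 begins 2.6 kb past the end of LOC400558 on the same strand, and reads past the end of that gene cannot be told apart from its own.

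CDH26 rose by 0.65 on the log2 scale (standard error 0.12, adjusted p = 0.026, edgeR), from 330, 345 and 332 with EGFP to 555, 607 and 436 with OmoMYC. ITGA6 fell, from 2201, 2045 and 3961 to 1475, 1329 and 3576, with a log2 fold change of −0.44 (standard error 0.09, adjusted p = 0.029, edgeR). ITGA9 fell to 2288, 2110 and 1816, a log2 fold change of −0.55 (standard error 0.09, adjusted p = 0.022, edgeR). The OmoMYC samples lay above the EGFP samples without overlap for CDH26, and each was below the EGFP sample of the same number for ITGA6 and ITGA9. For CDH26, ITGA6 and ITGA9 the call was lost without EGFP or OmoMYC replicate 1 or 2, with adjusted p-values from 0.17 to 0.22 (edgeR). CDH1, CDH2, CDH3, ITGAV, ITGB1 and ITGA5 did not pass, with log2 fold changes from −0.12 to 0.39, and the sign turned for CDH1 (−0.11 without EGFP replicate 1, −0.17 without EGFP replicate 2 and −0.02 without OmoMYC replicate 3) and for CDH2 (−0.39 without OmoMYC replicate 3, against 1.1 without EGFP replicate 3). ITGAV passed without EGFP replicate 3 (−0.14, adjusted p = 0.048, edgeR) and ITGB1 without OmoMYC replicate 3 (−0.23, adjusted p = 0.031, edgeR).

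The EGFP samples are shared by both comparisons, so the constructs were set against each other directly. Of 41 members, 12 were higher with SNF5 than with OmoMYC (11.5% of all genes tested) and 3 were lower (7.4%). The 12 were ITGAX, ITGB3, ITGAD, ITGA11, ITGB8, ITGA6, ITGA3, ITGB5, CDH1, CDH2, CDH5 and CDH13. ITGB3 differed by 3.39 on the log2 scale (standard error 0.30, adjusted p = 0.00018, edgeR), ITGAX by 2.68 (standard error 0.34, adjusted p = 0.001) and ITGA6 by 0.84 (standard error 0.09, adjusted p = 0.00045). CDH13, a cadherin held to the membrane by a GPI anchor, had normalised counts of 3184, 7740 and 17321 with EGFP, 2632, 5911 and 16299 with OmoMYC, and 3789, 6480 and 23079 with SNF5, so that groups overlapped and the difference was small (0.39, standard error 0.11, adjusted p = 0.034, edgeR). The 3 lower genes were CDH15 (−2.90, adjusted p = 0.00013, edgeR), CDH4 (−0.56, adjusted p = 0.001) and CDH26 (−0.53, adjusted p = 0.016). For ITGA9, which fell with both constructs, the difference of −0.21 did not pass (adjusted p = 0.15, edgeR). Without the block, 0 members were higher and 1 was lower, CDH15 (adjusted p = 0.015, edgeR), with 9 at an unadjusted p under 0.05. The calls of ITGAX, ITGB3, ITGAD, ITGA11, ITGA6, CDH15 and CDH4 held with any 1 of the 6 samples left out, though the difference of ITGAD went from 2.94 to 2.19 without SNF5 replicate 3. ITGA3 did not pass without any of them (adjusted p from 0.073 to 0.12). CDH13 passed without SNF5 replicate 2 and not without any other (up to 0.15), and CDH1 without SNF5 replicate 3 and not without any other (up to 0.092). CDH2 was lost without replicate 1 or 2 of either construct (up to 0.12), its log2 difference of 2.34 being 1.74 without SNF5 replicate 1, 3.0 without OmoMYC replicate 3 and 3.22 without SNF5 replicate 3, and CDH5 without OmoMYC replicate 2 or 3 or SNF5 replicate 1 or 2 (up to 0.16). CDH26 was lost without OmoMYC replicate 1 or 2 or SNF5 replicate 2 (up to 0.11), ITGB5 without any OmoMYC sample (up to 0.063), and ITGB8 without replicate 2 of either construct (up to 0.097). The count was 7 without OmoMYC replicate 2, and 9 without OmoMYC replicate 1 or SNF5 replicate 2.

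Several adhesion genes differed more by replicate number than by construct. ITGB6, the beta 6 subunit of epithelial cells that pairs with ITGAV, had normalised gene body counts of 1982, 3818 and 69.6 with EGFP, 1835, 3725 and 44.2 with OmoMYC, and 1655, 3658 and 52.1 with SNF5. Replicate 3 was far below in all 3 constructs. CDH6, a kidney cadherin, went the other way, with 9.73, 15.1 and 370 with EGFP, 7.58, 12.7 and 413 with OmoMYC, and 5.56, 24.2 and 337 with SNF5. ITGA4, the alpha 4 subunit, had 33.5, 50.4 and 201 with EGFP, 16.2, 33.1 and 220 with OmoMYC, and 21.3, 25.2 and 198 with SNF5.

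In 4 of 41 members tested (CDH6, CDH13, CDH17 and ITGA4), every replicate 3 sample was at least 2-fold above every sample of replicates 1 and 2 (after 0.5 was added to each normalised count), as in 1.99% of all genes tested, and in 1 (ITGB6) every replicate 3 sample was at least 2-fold below, as in 2.54%. These members were found by looking at the same values, so the counts are descriptions. None of the 5 passed the test of SNF5 or OmoMYC against EGFP. What differed between the replicates was not tested, and the labels name no date or passage for single samples.

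**Figure D4:**
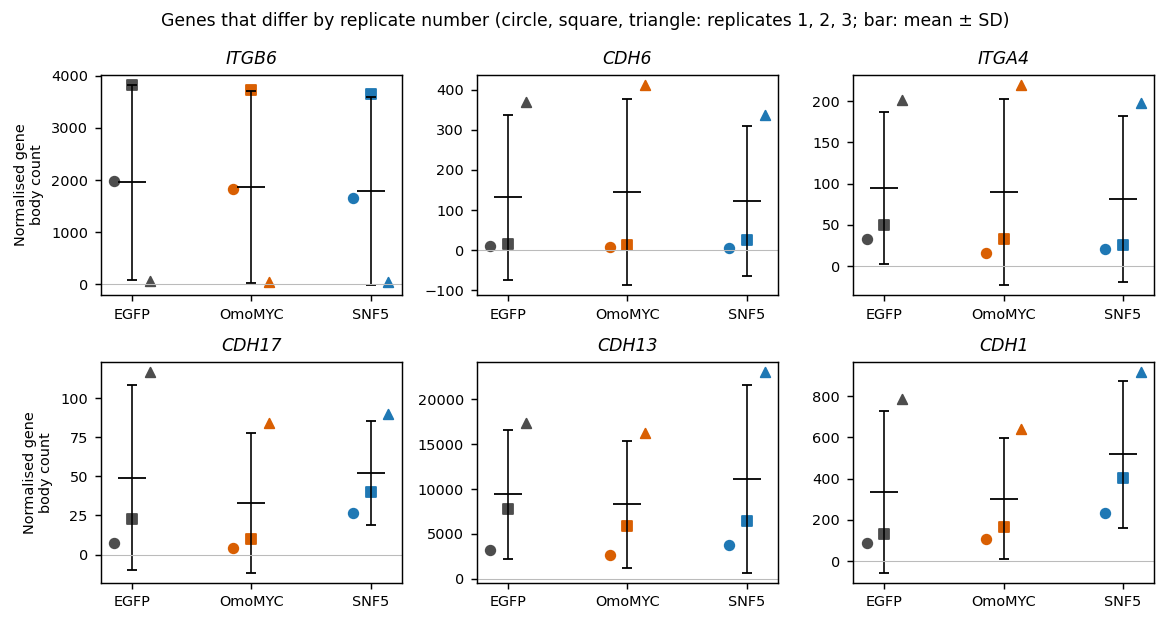
Normalised gene body counts of 6 members by construct, with replicate numbers 1, 2 and 3 as circle, square and triangle and the mean ± SD as black bars (n = 3). Triangles lie near 0 for ITGB6 (44.2 to 69.6), below all other markers, and above the other markers of each construct for CDH6, ITGA4, CDH17, CDH13 and CDH1.

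Promoter-proximal windows held few reads on most members, and 15 of the 48 had a mean of at least 10. With SNF5, 0 of these 15 passed (4.23% of all genes tested passed, either direction) in edgeR or in DESeq2, and 0 had an unadjusted p under 0.05 in either. The log2 fold changes ran from −1.08 in CDH15 to 0.61 in CDH13. Without EGFP replicate 1, 1 member passed. With OmoMYC, 1 of 15 passed (1.72% of all genes tested). This was CDH15, whose raw promoter-proximal reads were 3, 3 and 11 with EGFP, 2, 46 and 39 with OmoMYC, and 1, 8 and 0 with SNF5. Its log2 fold change with OmoMYC was 2.22 (standard error 0.49, adjusted p = 0.016, edgeR), but 1.25 without EGFP replicate 2 (adjusted p = 0.70, edgeR), and without OmoMYC replicate 2 or 3 its mean fell under the minimum of 10. CDH15 thus met this minimum only through the OmoMYC samples, where it was high. DESeq2 called 0 of the 15 and gave no adjusted p for 10 of them, and 0 passed without the block. Over all genes, 176 windows rose and 17 fell with OmoMYC, at a median log2 fold change of 0.13, and 128 rose and 119 fell once scaled by factors from promoter-proximal counts (median −0.03). CDH15 passed with either scaling. For SNF5 the same change of scaling moved the counts over all genes from 295 higher and 181 lower to 496 higher and 521 lower. The reads of ITGAX were 0, 1 and 0 with EGFP, 0, 9 and 1 with OmoMYC, and 4, 42 and 13 with SNF5, and it passed with no filter on low counts.

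The pausing index, the ratio of promoter-proximal to gene body density, was tested as the interaction of region and construct. With SNF5, 0 members of 15 passed (3.65% of all genes tested), and with OmoMYC 0 passed (2.01%), in edgeR and in DESeq2, which gave no adjusted p for 3 of the 15 with OmoMYC. At an unadjusted p under 0.05, edgeR gave 3 members with SNF5 and 3 with OmoMYC. Without EGFP replicate 3, 1 member passed with OmoMYC.

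The other genes of both pathways were read from lists of adaptors, catenins and repressors. Of 24 integrin adaptors tested, 5 rose and 4 fell with SNF5, shares near those over all genes tested (17.5% and 16.5%). TNS1, a tensin, went from 5, 13 and 33 raw reads with EGFP to 175, 140 and 216 (log2 fold change 3.33, adjusted p = 0.00052, edgeR), and the parvin gene PARVA rose by 0.72 (adjusted p = 0.00022). The others that rose were ACTN1, ACTN4 and LIMS2, and those that fell were BCAR1, PXN, PTK2 and PARVB. With OmoMYC, 2 rose and 4 fell, where 4.1% and 4.42% of all genes tested did. Of 6 catenins tested, 3 rose with SNF5 and 0 fell (17.5% and 16.5% of all genes), namely CTNNA2 (log2 fold change 1.27, adjusted p = 0.0012), CTNNAL1 (0.38, adjusted p = 0.0019) and CTNNB1 (0.25, adjusted p = 0.01), all from edgeR, and 0 with OmoMYC. Among 4 repressors of E-cadherin tested, 1 rose and 1 fell with SNF5 (17.5% and 16.5% of all genes). ZEB2 rose, from 5, 12 and 2 raw reads to 82, 89 and 15 (log2 fold change 3.14, adjusted p = 0.0055, edgeR). Its OmoMYC reads were 0, 14 and 2, so it passed the filter on low counts only through the SNF5 samples. SNAI1 fell (−0.33, adjusted p = 0.013, edgeR).

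Open chromatin was compared by peaks, since the lists hold no read counts. Peaks of the 9 ATAC-Seq samples merged into 40005 sites, 83 of which lay in a member gene or within 10 kb before its start. A site counted as gained where every sample of a construct (3 of 3) and no EGFP sample (0 of 3) carried a peak, and as lost in the reverse case. With SNF5, 6 of 83 member sites were gained (7.23%, against 9.09% of all sites) and 0 were lost (0.0075% of all sites). With OmoMYC, 0 were gained and 0 lost (0.0275% and 0.0175% of all sites). Per gene, 4 of 48 members had a gained site (8.33%) against 9.73% of all protein-coding genes. The median gene length, without the 10 kb searched before the start, was 90.5 kb for members and 28.3 kb for all these genes. These shares are therefore not like for like.

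The number of peaks at members was 14, 24 and 8 with EGFP, 6, 37 and 13 with OmoMYC, and 65, 54 and 33 with SNF5. The SNF5 samples were above all EGFP samples (exact two-sided permutation test, p = 0.1, the smallest that 3 against 3 can give). Peaks at members made up 0.112%, 0.135% and 0.087% of all peaks with EGFP and 0.193%, 0.203% and 0.145% with SNF5, without overlap (exact two-sided permutation test, p = 0.1). With OmoMYC they made up 0.083%, 0.156% and 0.106%. OmoMYC replicate 2, with 23684 peaks, thus lay above SNF5 replicate 3, with 22722. Samples with more peaks tended to have a larger share, so the share does not remove the difference in peak number. SNF5 samples also had more peaks in all, 22722 to 33596 against 9208 to 17817 with EGFP. When the same number of strongest peaks, 7260, was taken from each sample, 0 member sites were gained, and 180 over all genes and intergenic sites. For OmoMYC the exact permutation test gave p = 0.9.

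Of the 6 gained sites, 3 were in ITGA1, at 0.2, 11.6 and 134.6 kb past its start, although ITGA1 did not pass the test of gene body counts. The third, chr5:52922431-52922728 in GRCh38, had fold enrichments of 7.27, 9.39 and 8.25 in the SNF5 samples. One OmoMYC sample had a peak at the first. The others lay in CDH11 and CDH12, and 9.4 kb before ITGB6. Gene body counts of CDH12 and ITGB6 did not pass the test with SNF5, and CDH11 was not tested.

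CDH2 and ITGB8, both transcribed more with SNF5, had peaks near the start mainly in SNF5 samples. The CDH2 site chr18:28177256-28177482, which overlaps the sequence shown above, had a peak in 2 SNF5 samples (fold enrichment 4.62 and 6.84) and in 0 of the 6 EGFP and OmoMYC samples. The ITGB8 site chr7:20330127-20330835, which overlaps the sequence shown, had a peak in 3 SNF5 samples (4.94, 6.75 and 8.06), 1 EGFP sample (4.21) and 1 OmoMYC sample (5.67). The pattern of CDH2 was also seen at the 5′ end of ITGB8, at chr7:20329722-20329983 (fold enrichment 5.2 and 6.79 with SNF5). It was seen as well near an annotated start within ITGA5 and within CDH26. Gene body counts of ITGA5 and CDH26 did not pass with SNF5 (log2 fold changes −0.11 and 0.12). ITGB3, ITGAD and ITGA11, which rose with SNF5, had no site within 1 kb of a start. ITGAX and CDH1 had 0 peaks in any sample. SNF5 samples had more peaks in all, as given above, and a link between peaks and transcription was not tested. The starts of ITGAV, ITGB1 and CDH15 had a peak in all 9 samples, and at CDH15 the fold enrichment was 4.08, 6.93 and 4.47 with EGFP and 4.23, 5.79 and 4.2 with OmoMYC.

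**Figure D5:**
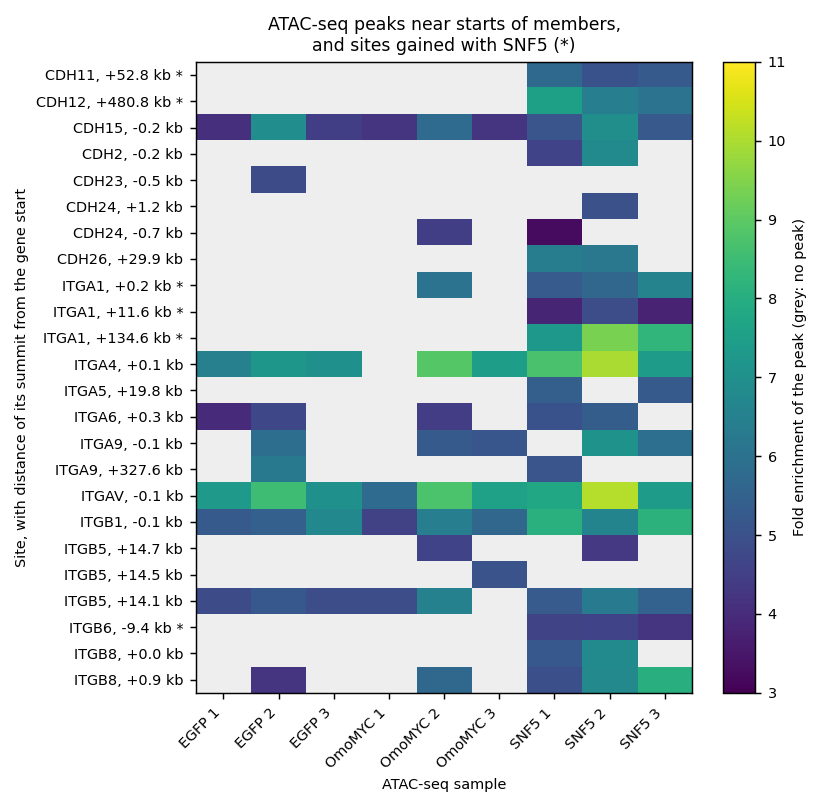
Fold enrichment of ATAC-Seq peaks (color) in the 9 samples at sites within 1 kb of an annotated start of a member and at the 6 sites gained with SNF5 (asterisks), labelled by gene and by distance of the summit from the 5′ end of the gene; grey marks no peak. ITGAV, ITGB1 and CDH15 have a peak in all 9 samples, and CDH2 in 2 SNF5 samples.

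MYC ChIP-Seq lists were searched for a region shared by both EGFP samples with its summit within 1 kb of the start. Of the 48 members 0 had one, against 882 of 20367 gene symbols, or 4.33%. The count was also 0 when all peaks of EGFP replicate 2 were taken and when the distance was 5 kb.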

How the data were processed

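PRO-Seq (9 samples), ATAC-Seq (9) and MYC ChIP-Seq (6) of G401 cells were analysed from the processed files, and 6 IgG samples were not used here. The authors trimmed PRO-Seq reads with cutadapt, aligned them to hg19 with Bowtie2 and ran NRSA for counting over RefSeq transcripts. Raw counts, unnormalized, are deposited for promoter-proximal windows and for gene bodies, and a gene body signal (reads per bp), used only to check gene body lengths. The deposited peak lists, called per sample with MACS2, give fold enrichment ratios, −log10 p and q values, and a score, which was not used. ATAC-Seq is in hg38 and ChIP-Seq in hg19.

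The transcript of each symbol with the most gene body reads was kept. Genes with a mean of at least 10 counts were tested with edgeR 4.0.16 (quasi-likelihood) in R 4.3.3, all 9 samples together, with DESeq2 1.42.0 as an alternative and Benjamini-Hochberg adjustment at 0.05. Library size was the gene body total times an RLE factor, for both regions. The replicate number was a block: after removing construct means, samples of the same number correlated at 0.753 to 0.881 across genes in gene body counts, and others at −0.667 to 0.124. Normalised counts are counts divided by size factors. Alternatives varied the block, scaling, filter, tool and samples. Peaks overlapping by 1 bp were merged with Python 3.11.15, pandas 2.3.3 and SciPy 1.17.1. Gene spans in GRCh38 came from RefSeq. Total gene body counts per sample were 28444943 to 46957634.

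Members and gene lists were chosen with earlier results of these data known. Named members were those called in any test of counts, plus CDH1, CDH2, CDH3, CDH11, ITGB1, ITGAV and ITGA5. Other members named to complete a subgroup, the printed promoters and the genes in the panels were chosen after their values were seen.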

Additional observations from a re-analysis of the deposited data

Results flagged for a closer look

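For 4 members the fitted changes of gene body counts against the shared EGFP samples had opposite signs, and the difference between constructs passed the test. CDH15 rose with OmoMYC by 2.35 on the log2 scale. It stood at −0.55 with SNF5, which did not pass (adjusted p = 0.11, edgeR), a difference of −2.90 for SNF5 minus OmoMYC. ITGA6 fell with OmoMYC and rose with SNF5, both past the threshold, and differed by 0.84. CDH4 differed by −0.56, where the value with OmoMYC (0.24) did not pass. CDH13, the GPI-anchored T-cadherin, differed by 0.39, and neither of its values (−0.25 with OmoMYC, 0.14 with SNF5) passed against EGFP. With single samples left out, the CDH13 call was lost in 5 of 6 fits. Groups of 3 samples are too small for the outlier test used.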

How the results depend on the processing

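Counts below are members called. In gene body counts with SNF5, 16 became 15 with DESeq2, with TMM factors and with only 2 groups fitted, 11 to 20 with a sample left out, and 3 without the replicate block. Without 1 replicate number in every construct, a setting chosen after the data were seen, it was 7, 9 or 24. With OmoMYC, 4 became 0 without the replicate block, 7 with only 2 groups fitted, 0 to 8 with a sample left out and 0 to 17 without a replicate number. For SNF5 against OmoMYC, 15 became 1 without the replicate block, 7 to 16 with a sample left out and 7, 8 or 20 without a replicate number. In promoter-proximal counts with SNF5, 0 became 1 with no filter and with only 2 groups fitted, and 0 to 2 with samples left out. With OmoMYC, 1 became 0 without the block and with DESeq2, and 0 to 2 with samples left out. For the pausing index, 0 became 2 with SNF5 and no filter, and 0 to 1 with OmoMYC and samples left out. Over all genes, calls without the block fell to 218 higher and 7 lower with SNF5, and 1 and 0 with OmoMYC. ATAC-Seq sites gained with SNF5 went from 6 to 0 with equal numbers of peaks, 23 with 2 of 3 samples sufficing, 10 with 50 kb before the start, and 10 to 19 with a replicate left out. With OmoMYC they went from 0 to 1 with 2 of 3 sufficing, and 0 to 1 with a replicate left out. The count of MYC regions was 0 under each alternative run. Fitted log2 fold changes turned sign for CDH1 with OmoMYC (0.01), which was −0.15 without the block, 0.0 with TMM factors, −0.17 to 0.45 with a sample left out, and −0.08 and −0.09 without replicates 1 and 2. CDH2 with OmoMYC was −0.39 to 1.1 with a sample left out. ITGAV with SNF5 was −0.13 to 0.0 with a sample left out and 0.02 without replicate 2, and ITGAV and ITGB1 with OmoMYC were 0.0 without replicate 2. The causes were not tested, apart from the smaller number of samples or genes that the alternatives themselves set. Members with few reads, such as ITGB8 and CDH2, and promoter-proximal windows had limited precision.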
